A study of Mus musculus with 11 samples.

Results

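The 48 genes described here encode the machinery that copies DNA and the factors that start S phase: origin licensing factors, the MCM helicase ring and its activators, DNA polymerases, the sliding clamp and its loaders, single-strand binding and Okazaki fragment factors, enzymes of nucleotide supply, chromatin assembly factors and regulators of the G1/S transition. They were chosen by name for what their proteins do. All 48 were found among the 21684 genes of the count table, and all 48 passed the filter on low counts that left 13332 genes for testing. Their median count over genes and libraries was 950.5, and the member with the fewest reads had a median of 179.

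Before S phase, ORC, CDC6 and CDT1 load the MCM2-7 ring onto origins of replication, and geminin keeps CDT1 from loading it again. Kinases then turn the ring into an active helicase by adding CDC45 and GINS, after which polymerase alpha-primase lays down primers and polymerases delta and epsilon extend them, held to DNA by the PCNA clamp. In growing fibroblasts, E2F transcription factors drive many of these genes late in G1, and in serum-starved fibroblasts RB-family proteins keep E2F target genes repressed.

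The libraries came from the NIH/3T3 line, an established culture of fibroblasts from mouse embryos, and all 11 were made after 24 h without serum that followed sparse seeding and 24 h of growth. Wild-type (WT) cells gave 2 libraries, and knockouts of Xap5, Nono and Sox5 gave 3 each. Xap5, listed in the table under its symbol Fam50a, encodes a nuclear protein linked to RNA splicing, Nono encodes a paraspeckle RNA-binding protein, and Sox5 encodes an HMG-box transcription factor. How the knockouts were made, and whether a group is 1 clone or a pool, is not given in the sources used here. Nothing in the labels says that the libraries of a group came from separate cultures, so p-values measure the spread between these libraries, which may be technical. All libraries are from starved cells, so no level in growing cells was measured. In these bulk libraries, fewer cells in S phase and less RNA of a gene per cell cannot be told apart.

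Library totals ranged from 30205878 to 43498383 estimated counts, and levels are given as CPM, counts scaled to a common library size. Fam50a stood at 64.8 and 62.9 CPM in WT, 7.49, 7.91 and 7.86 in Xap5 KO, 47.2, 49.3 and 46.3 in Nono KO, and 107, 121 and 99.6 in Sox5 KO. Nono stood at 357 and 351 CPM in WT, 448, 447 and 415 in Xap5 KO, 33.95, 33.998 and 27.6 in Nono KO, and 409, 462 and 444 in Sox5 KO. Both targeted genes were thus lowest in the 3 libraries of their own knockout. Sox5 stood at 49.7 and 45.9 CPM in WT, 14.2, 15.02 and 11.9 in Xap5 KO, 7.01, 7.57 and 8.75 in Nono KO, and 12.6, 13.9 and 13.9 in Sox5 KO, so the Sox5 KO libraries were below WT but not apart from the Xap5 KO libraries, and Nono KO was lowest. Of 12 fibroblast markers none was at 0 in any library, and their summed level was 18947 to 24860 CPM in WT, Xap5 KO and Sox5 KO and 49844 to 54583 CPM in Nono KO. These sums hide markers that moved apart. Their log2 fold changes against WT ran from -2.14 to 1.10 in Xap5 KO and from -0.03 to 3.69 in Nono KO. In Sox5 KO they ran from -3.69 to 1.61. Epithelial markers summed to at most 0.4 CPM (5 to 7 of 7 at 0), blood cell markers to 2.56 to 11.59 CPM (3 to 5 of 7 at 0), endothelial markers to 2.96 to 35.71 CPM (0 to 3 of 5 at 0) and skeletal muscle markers to 0.25 to 4.04 CPM (2 to 4 of 5 at 0). The part of these markers in the results below was not tested.

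The promoters of a few members are shown first, because the licensing factors and ring subunits among them moved in different directions in these cells. RefSeq promoter windows (GRCm38.p6, 250 bases before and 50 bases after a gene's start) were matched by symbol for 39 of the 48 genes. They were searched on both strands for the E2F words TTTCCCGC, TTTCGCGC, TTTGCCGC and TTTGGCGC, which can overlap one another when they lie on opposite strands. At least 1 word lay in the window of 15 of the 39 members (38.5%), against 704 of 27025 genes in the same table (2.6%). The CCAAT word lay in the windows of 59.0% of the members and of 41.1% of all genes. A match is a description of letters, not evidence of binding. The windows below are from Cdc6 at chr11:98907901-98908200 (plus strand) and Cdt1 at chr8:122567765-122568064 (plus strand), the licensing factors with the largest rise and the largest fall against WT, and from 3 ring subunits, Mcm2 at chr6:88898731-88899030 (minus strand), Mcm3 at chr1:20820263-20820562 (minus strand) and Mcm5 at chr8:75109259-75109558 (plus strand). Each reads 5′ to 3′ along its gene, with the E2F words in capitals, and Mcm2 holds none of them.
Cdc6: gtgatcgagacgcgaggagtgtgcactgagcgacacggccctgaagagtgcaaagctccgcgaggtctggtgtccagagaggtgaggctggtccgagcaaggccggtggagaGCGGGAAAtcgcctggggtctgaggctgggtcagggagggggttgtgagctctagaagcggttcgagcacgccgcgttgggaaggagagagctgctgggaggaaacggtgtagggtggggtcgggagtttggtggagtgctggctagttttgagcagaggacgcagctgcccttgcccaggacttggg
Cdt1: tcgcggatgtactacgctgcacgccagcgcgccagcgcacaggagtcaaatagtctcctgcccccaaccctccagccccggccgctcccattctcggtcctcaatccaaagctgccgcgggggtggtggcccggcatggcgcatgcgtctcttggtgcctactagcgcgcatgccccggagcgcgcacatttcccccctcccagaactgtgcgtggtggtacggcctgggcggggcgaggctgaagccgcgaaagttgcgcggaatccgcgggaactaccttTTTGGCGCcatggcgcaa
Mcm2: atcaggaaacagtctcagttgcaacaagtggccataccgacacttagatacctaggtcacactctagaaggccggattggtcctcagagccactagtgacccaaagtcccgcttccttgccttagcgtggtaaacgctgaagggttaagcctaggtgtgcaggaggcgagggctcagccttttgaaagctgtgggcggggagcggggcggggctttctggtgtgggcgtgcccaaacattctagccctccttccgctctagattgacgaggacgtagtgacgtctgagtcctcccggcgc
Mcm3: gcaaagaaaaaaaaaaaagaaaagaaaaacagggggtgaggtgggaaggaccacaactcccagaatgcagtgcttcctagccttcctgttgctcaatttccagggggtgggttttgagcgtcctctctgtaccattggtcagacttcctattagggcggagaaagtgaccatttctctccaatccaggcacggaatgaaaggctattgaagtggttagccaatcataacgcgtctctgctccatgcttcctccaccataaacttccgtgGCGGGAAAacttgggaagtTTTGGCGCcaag
Mcm5: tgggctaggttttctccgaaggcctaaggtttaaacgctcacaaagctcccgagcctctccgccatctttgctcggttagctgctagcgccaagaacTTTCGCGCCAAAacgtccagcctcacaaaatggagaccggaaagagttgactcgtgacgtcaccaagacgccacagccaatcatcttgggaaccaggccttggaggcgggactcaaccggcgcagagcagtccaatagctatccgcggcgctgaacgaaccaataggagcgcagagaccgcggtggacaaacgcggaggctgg
In Mcm5 the capitals hold 2 overlapping words that start at positions -153 and -149 from the gene's start. Mcm3 carries its 2 words downstream, at bases 20 and 39 of the transcript. Cdc6 carries 1 word that starts at position -138, and Cdt1 has 1 at base 33 of the transcript. Among ring windows not shown, Mcm6 holds 3 words, and Mcm7 holds 2 in 1 window and 0 in its other window. With all libraries and TMM factors, Mcm6 fell in Nono KO only, and Mcm7 was not called against WT in any knockout. Whether the words go with the direction of change was not tested.

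Compared with WT, most of the 48 replication genes were higher in Xap5 KO, while Nono KO and Sox5 KO each held rises and falls. In Xap5 KO, 28 of 48 rose and 1 fell by edgeR's quasi-likelihood test at an adjusted p under 0.05, where 23.2% of all tested genes were called higher and 22.3% lower. The median log2 fold change of the 48 was 0.42, against 0.0026 for all tested genes. In Nono KO, 6 rose and 13 fell, with 23.5% of all genes called higher and 25.1% lower, and the median was -0.09 against -0.02. In Sox5 KO, 18 rose and 8 fell, with 30.6% of all genes called higher and 30.3% lower, and the median was 0.20 against -0.0058. Read against these shares, rises were more frequent and falls rarer in Xap5 KO than among all genes. In Nono KO the share of falls was near that of all genes and the share of rises below it, and in Sox5 KO the share of rises was near that of all genes and the share of falls below it. The 3 comparisons share the WT libraries.

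Single libraries moved some of these counts by more than 1.5 times. Without WT replicate 2, 10 members were called higher and 5 lower in Sox5 KO, and 1 was called higher in Nono KO. Without Sox5 KO replicate 2, 5 members were called lower in Sox5 KO. In Nono KO, 3 members were called higher without WT replicate 1, 2 without Nono KO replicate 1, 2 without Nono KO replicate 2 and 10 without Nono KO replicate 3. The Nono KO median was -0.25 without Nono KO replicate 2. The Xap5 KO count of 28 lay between 21, without WT replicate 2, and 31, without Nono KO replicate 3. Over all 13332 genes, these fits called 2294 to 3145 higher in Xap5 KO, 2564 to 3242 in Nono KO and 3397 to 4114 in Sox5 KO. Called lower were 2349 to 2993, 2556 to 3379 and 3489 to 4133 in the same order.

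Every Xap5 KO library lay above both WT libraries for 35 of the 48 genes and below both for 3, where the same held for 32.3% and 31.4% of all genes. In Nono KO, 3 genes lay above and 16 below, against 31.3% and 35% of all genes. In Sox5 KO, 23 lay above and 14 below, against 37.8% and 38% of all genes. The spread between libraries of a group was not the same in each: the median coefficient of variation of the 48 genes was 18.76% in Nono KO, against 6.13% in WT, 9.21% in Xap5 KO and 5.28% in Sox5 KO. Over all tested genes it was 8% in Nono KO, 5.36% in WT, 8.32% in Xap5 KO and 7.09% in Sox5 KO.

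**Figure D1:**
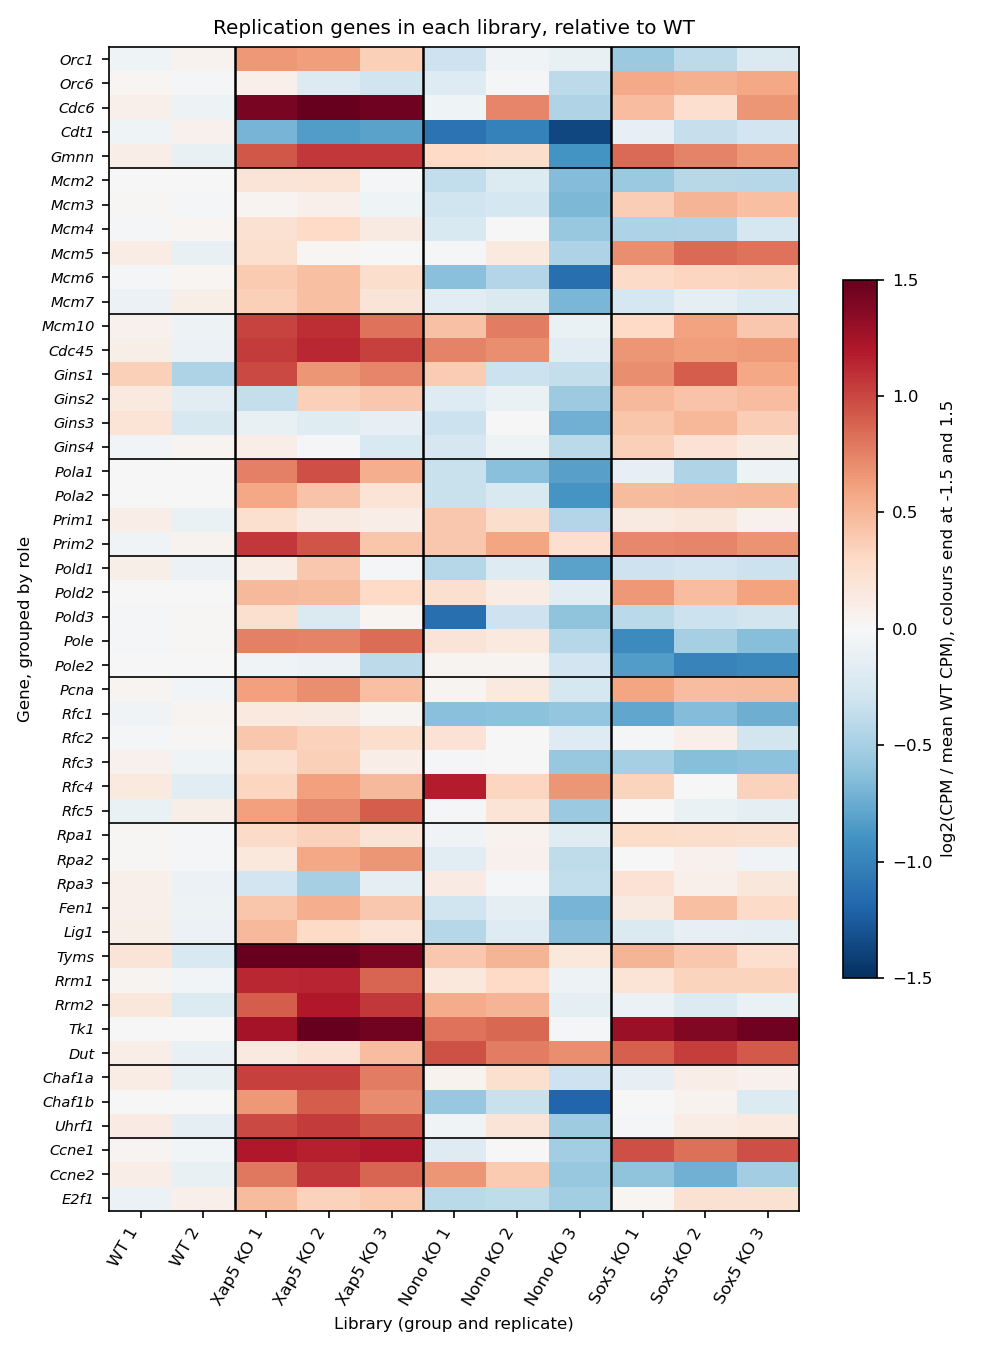
Level of each of the 48 genes (rows, grouped by role) in each of the 11 libraries (columns), as log2 of CPM over the mean WT CPM; colours are capped at the ends of the scale. The Xap5 KO columns are mostly above WT, Nono KO replicate 3 is the lowest Nono KO library for 44 of the 48 genes, and the Sox5 KO columns hold rises and falls.

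**Figure D2:**
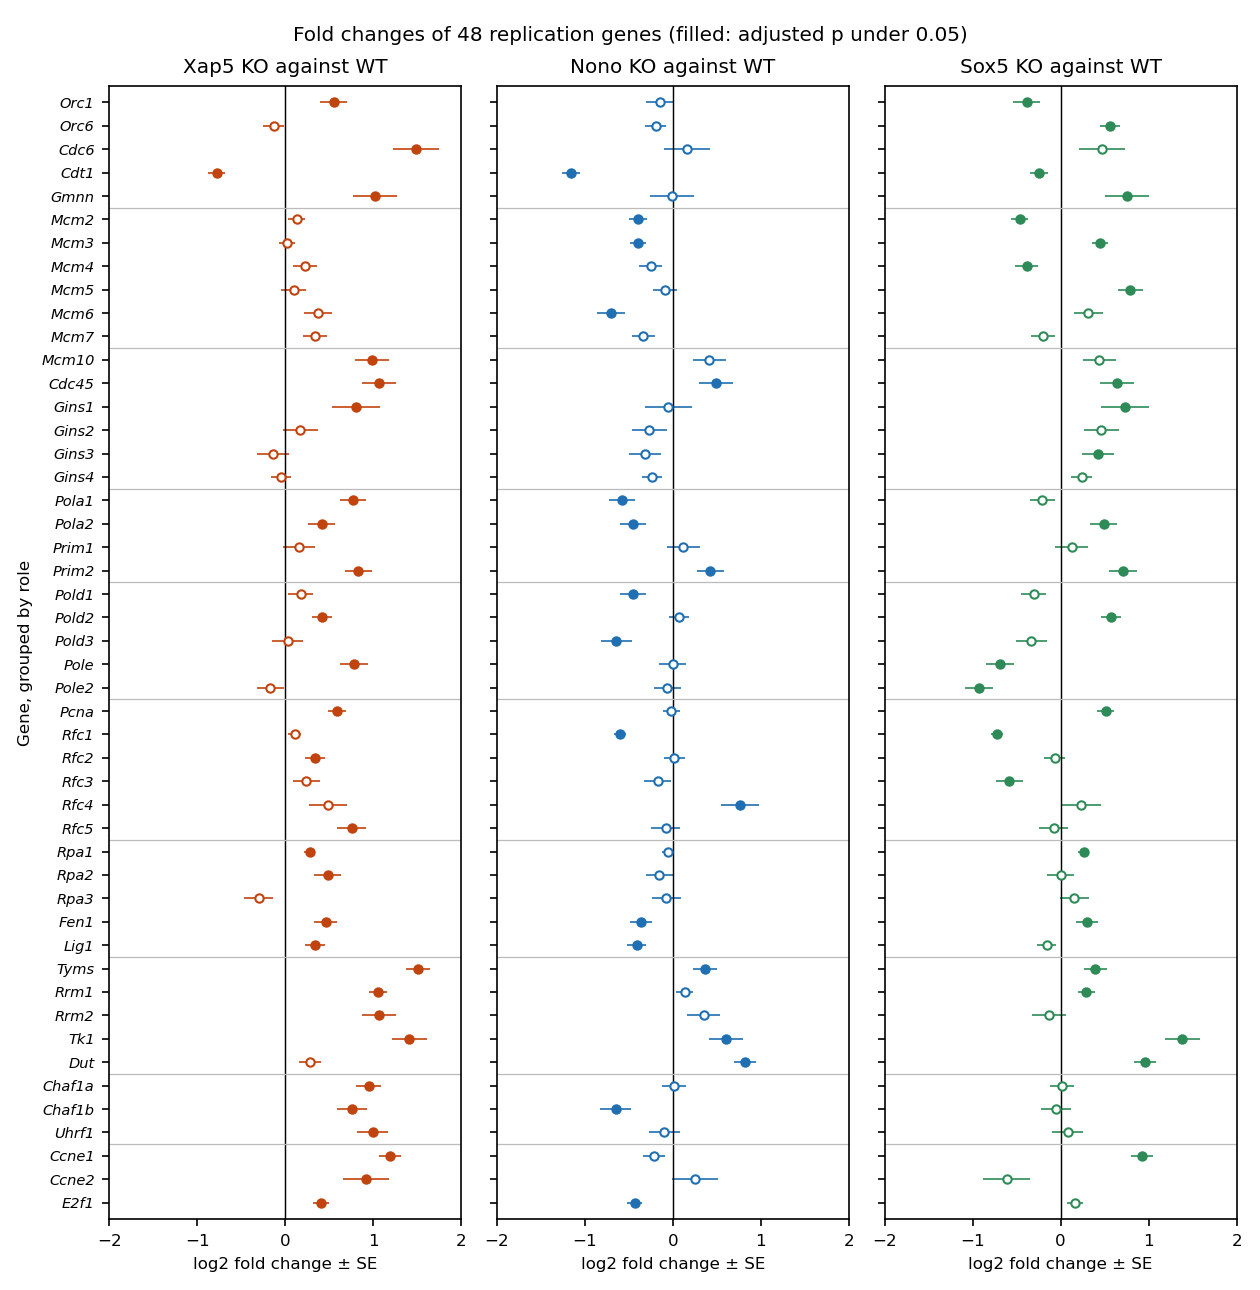
The log2 fold change (x axis) of each gene (y axis, grouped by role) against WT in the 3 knockouts, with bars of 1 SE; filled points passed an adjusted p of 0.05. Filled points lie to the right for 28, 6 and 18 genes and to the left for 1, 13 and 8 in the order Xap5, Nono and Sox5 KO.

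In the accounts by role that follow, the length and GC offset and the chromosome offset are fits that remove trends with transcript length and GC content or the median change of each chromosome, and all p-values are Benjamini-Hochberg adjusted over the 13332 genes.

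The origin licensing factors did not move together. Of 5 genes, 3 rose and 1 fell in Xap5 KO, 1 fell in Nono KO, and 2 rose and 2 fell in Sox5 KO. Cdc6, the ATPase that works with ORC to load the MCM ring, stood at 8.01 and 7.22 CPM in WT, 20.4, 22.5 and 21.02 in Xap5 KO, 7.25, 12.7 and 5.55 in Nono KO, and 10.5, 9.05 and 12.03 in Sox5 KO. All Xap5 KO libraries were above every other library, at 2.8-fold the WT level. Cdc6 rose in Xap5 KO (log2 fold change 1.49, SE 0.265, edgeR adjusted p = 0.000457). Cdc6 was not called in Nono KO (log2 fold change 0.16, SE 0.261, edgeR adjusted p = 0.649) or in Sox5 KO (log2 fold change 0.47, SE 0.263, edgeR adjusted p = 0.142). Cdt1, the loading partner of Cdc6, stood at 52.4 and 57.2 CPM in WT, 33.7, 30.6 and 31.4 in Xap5 KO, 25.4, 27.1 and 21.2 in Nono KO, and 50.5, 43.1 and 44.9 in Sox5 KO. Its levels in each knockout lay below both WT libraries. Cdt1 fell in Xap5 KO (log2 fold change -0.78, SE 0.0999, edgeR adjusted p = 1.67e-06), in Nono KO (log2 fold change -1.16, SE 0.1, edgeR adjusted p = 4.42e-09) and in Sox5 KO (log2 fold change -0.25, SE 0.1, edgeR adjusted p = 0.0386). Cdt1 was the only member that fell in Xap5 KO, at 0.583 times the WT level, and in Nono KO it was at 0.449 times. Gmnn, which encodes the CDT1 inhibitor geminin, stood at 5.53 and 4.79 CPM in WT, 9.83, 10.8 and 10.7 in Xap5 KO, 6.34, 6.21 and 2.76 in Nono KO, and 9.28, 8.68 and 8.07 in Sox5 KO. The Xap5 KO and Sox5 KO libraries were above WT, and Nono KO overlapped it. Gmnn rose in Xap5 KO (log2 fold change 1.02, SE 0.251, edgeR adjusted p = 0.00248) and in Sox5 KO (log2 fold change 0.75, SE 0.251, edgeR adjusted p = 0.0144). Gmnn was not called in Nono KO (log2 fold change -0.01, SE 0.249, edgeR adjusted p = 0.982). Orc1, the largest ORC subunit, stood at 10.1 and 10.9 CPM in WT, 16.5, 16.2 and 13.5 in Xap5 KO, 8.51, 10.2 and 9.78 in Nono KO, and 7.14, 8.03 and 9.03 in Sox5 KO. It was above WT in all Xap5 KO libraries and below WT in all Sox5 KO libraries. Orc1 rose in Xap5 KO (log2 fold change 0.55, SE 0.153, edgeR adjusted p = 0.00569). Orc1 fell in Sox5 KO (log2 fold change -0.38, SE 0.154, edgeR adjusted p = 0.0364). Orc1 was not called in Nono KO (log2 fold change -0.15, SE 0.152, edgeR adjusted p = 0.448). Orc6, the smallest ORC subunit, was above WT in all Sox5 KO libraries (log2 fold change 0.56, SE 0.117, edgeR adjusted p = 0.000278). Orc1 lost its call in Xap5 KO without WT replicate 1 (adjusted p = 0.0675). Orc1 also lost it in Sox5 KO without WT replicate 1 or 2 or Sox5 KO replicate 1 or 2 or with the chromosome offset (adjusted p up to 0.452). Orc6 lost its call in Sox5 KO with the length and GC offset (adjusted p = 0.0671). Orc6 gained a call in Nono KO with library totals alone or with the length and GC offset (adjusted p down to 0.0105). Orc6 was still called in Sox5 KO at a log2 fold change of 0.32 with the chromosome offset (adjusted p = 0.0236). Cdc6 gained a call in Sox5 KO without Nono KO replicate 2 or 3 or in a fit of the compared groups alone (adjusted p down to 0.0141). Cdt1 lost its call in Sox5 KO without WT replicate 2 or Sox5 KO replicate 2 or 3 (adjusted p up to 0.249). Cdt1 was still called in Xap5 KO at a log2 fold change of -0.41 with the chromosome offset (adjusted p = 0.00231). Cdt1 was also still called in Sox5 KO at a log2 fold change of -0.44 with the length and GC offset (adjusted p = 0.000541). Cdt1 was also still called in Sox5 KO at a log2 fold change of -0.49 with the chromosome offset (adjusted p = 0.000239). Gmnn lost its call in Sox5 KO without WT replicate 2 or with the length and GC offset (adjusted p up to 0.423).

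The MCM2-7 ring is made of 6 different subunits in equal numbers, and in Sox5 KO some of its subunit genes rose while others fell. No ring gene was called in Xap5 KO, 3 fell in Nono KO, and 2 rose and 2 fell in Sox5 KO. Mcm6 stood at 99.96 and 104 CPM in WT, 133, 139 and 123 in Xap5 KO, 65.8, 75.2 and 46.5 in Nono KO, and 124, 127 and 129 in Sox5 KO. All Nono KO libraries were below WT, while those of Xap5 KO and Sox5 KO were above. Mcm6 fell in Nono KO (log2 fold change -0.70, SE 0.16, edgeR adjusted p = 0.00568). Mcm6 was not called in Xap5 KO (log2 fold change 0.37, SE 0.162, edgeR adjusted p = 0.0947) or in Sox5 KO (log2 fold change 0.31, SE 0.162, edgeR adjusted p = 0.127). Mcm2 stood at 93.04 and 91.8 CPM in WT, 105, 107 and 91.2 in Xap5 KO, 71.4, 80.3 and 59.1 in Nono KO, and 62.9, 69.03 and 68.6 in Sox5 KO. It was below WT in all Nono KO and Sox5 KO libraries. Mcm2 fell in Nono KO (log2 fold change -0.39, SE 0.0992, edgeR adjusted p = 0.00301) and in Sox5 KO (log2 fold change -0.47, SE 0.0995, edgeR adjusted p = 0.000539). Mcm2 was not called in Xap5 KO (log2 fold change 0.13, SE 0.0997, edgeR adjusted p = 0.319). Mcm5 stood at 40.6 and 34.9 CPM in WT, 44.6, 38.4 and 38.05 in Xap5 KO, 36.9, 41.9 and 27.4 in Nono KO, and 61.1, 68.1 and 66.6 in Sox5 KO. Only its Sox5 KO libraries, at 1.73 times the WT level, were clear of WT. Mcm5 rose in Sox5 KO (log2 fold change 0.79, SE 0.142, edgeR adjusted p = 0.000191). Mcm5 was not called in Xap5 KO (log2 fold change 0.10, SE 0.14, edgeR adjusted p = 0.616) or in Nono KO (log2 fold change -0.09, SE 0.14, edgeR adjusted p = 0.628). Mcm7, whose transcript overlaps 2 annotated miRNA genes on its own strand, stood at 74.9 and 84.8 CPM in WT, 102, 109 and 91.1 in Xap5 KO, 71.5, 68.8 and 49.5 in Nono KO, and 66.6, 72.9 and 69.3 in Sox5 KO. Its Xap5 KO libraries were above WT and those of the other two knockouts below. Mcm7 was not called in Xap5 KO (log2 fold change 0.34, SE 0.136, edgeR adjusted p = 0.0613), in Nono KO (log2 fold change -0.34, SE 0.134, edgeR adjusted p = 0.0587) or in Sox5 KO (log2 fold change -0.20, SE 0.135, edgeR adjusted p = 0.23). Among the remaining subunits, Mcm3 fell in Nono KO (log2 fold change -0.40, SE 0.0915, edgeR adjusted p = 0.00139) and rose in Sox5 KO (log2 fold change 0.45, SE 0.0928, edgeR adjusted p = 0.000366), and Mcm4 fell in Sox5 KO (log2 fold change -0.38, SE 0.132, edgeR adjusted p = 0.0259). Mcm2 lost its call in Nono KO with the chromosome offset (adjusted p = 0.171). Mcm2 also lost it in Sox5 KO with the chromosome offset (adjusted p = 0.369). Mcm2 gained a call in Xap5 KO with the chromosome offset (log2 fold change 0.40, adjusted p = 0.00524). Mcm4 lost its call in Sox5 KO without WT replicate 1 or 2, Xap5 KO replicate 1 or Sox5 KO replicate 1 or 2, with the length and GC offset or with the chromosome offset (adjusted p up to 0.116). Mcm4 gained a call in Xap5 KO without Nono KO replicate 3 or in a fit of the compared groups alone (adjusted p down to 0.0167). Mcm4 also gained one in Nono KO without Nono KO replicate 2, with library totals alone or with the chromosome offset (adjusted p down to 0.00348). Mcm5 gained a call in Xap5 KO with the chromosome offset (log2 fold change 0.46, adjusted p = 0.0195). Mcm6 lost its call in Nono KO in a fit of the compared groups alone (adjusted p = 0.0794). Mcm6 gained a call in Xap5 KO without Nono KO replicate 2 or 3, in DESeq2 or in a fit of the compared groups alone (adjusted p down to 0.000194). Mcm6 also gained one in Sox5 KO without Nono KO replicate 2 or 3, in DESeq2, in a fit of the compared groups alone or with the length and GC offset (adjusted p down to 0.000202). Mcm7 gained a call in Xap5 KO without Xap5 KO replicate 3 or Nono KO replicate 1 or 3, in DESeq2 or in a fit of the compared groups alone (adjusted p down to 0.00177). Mcm7 also gained one in Nono KO without Nono KO replicate 1 or 2, with library totals alone or in DESeq2 (adjusted p down to 0.00509). Mcm7 also gained one in Sox5 KO without Nono KO replicate 3, in a fit of the compared groups alone or with the length and GC offset (adjusted p down to 0.0201).

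Per kilobase of transcript, the 6 subunits can be set side by side. Mcm4 was the highest and Mcm5 the lowest in each of the 8 WT, Xap5 KO and Nono KO libraries, with a ratio between them of 2.33 to 3.25. In WT, Mcm4 stood at 29.3 and 30.5 CPM per kb and Mcm5 at 12.02 and 10.3. In all 3 Sox5 KO libraries, Mcm3 was the highest, at 34.2, 37.5 and 36.2 CPM per kb, and Mcm2 the lowest, at 18.01, 19.8 and 19.7, with a ratio of 1.84 to 1.9. The order of the subunits thus differed between Sox5 KO and the other groups. The SD of the 6 log2 fold changes against WT was 0.507 in Sox5 KO, against 0.14 for Xap5 KO and 0.202 for Nono KO. With the chromosome offset the SD was 0.309 in Sox5 KO, 0.166 for Xap5 KO and 0.254 for Nono KO, so the contrast with each of the other knockouts was smaller. The order per kilobase was taken without this offset.

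**Figure D3:**
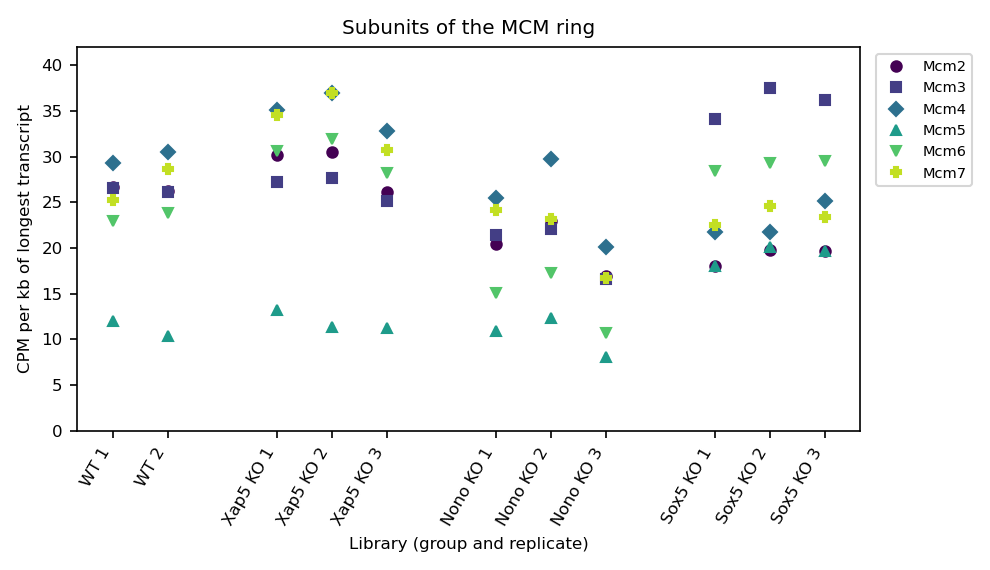
CPM per kb of transcript (y axis) of the 6 MCM ring genes in each library (x axis, grouped by WT and knockout), 1 point per gene and library. Mcm4 is at the top and Mcm5 at the bottom in WT, Xap5 KO and Nono KO, whereas in Sox5 KO Mcm3 is at the top, at 34.2 to 37.5, and Mcm2 at the bottom.

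Of the 6 genes that turn the loaded ring into a working helicase, Xap5 KO had 3 rises, Nono KO 1 and Sox5 KO 3, and none fell. Cdc45, a subunit of the active CMG helicase, stood at 10.3 and 9.15 CPM in WT, 20.2, 21.4 and 19.8 in Xap5 KO, 16.3, 15.8 and 8.699 in Nono KO, and 15.4, 15.01 and 15.2 in Sox5 KO. Nono KO replicate 3 was below both WT libraries, and all other knockout libraries were above them. Cdc45 rose in Xap5 KO (log2 fold change 1.07, SE 0.194, edgeR adjusted p = 0.000206), in Nono KO (log2 fold change 0.48, SE 0.193, edgeR adjusted p = 0.0462) and in Sox5 KO (log2 fold change 0.64, SE 0.194, edgeR adjusted p = 0.00826). Mcm10, which helps the assembled helicase to start, stood at 10.4 and 9.46 CPM in WT, 20.05, 21.4 and 17.5 in Xap5 KO, 13.5, 16.9 and 9.25 in Nono KO, and 12.2, 15.1 and 13.1 in Sox5 KO. The Xap5 KO libraries were the highest and did not overlap any other group. Mcm10 rose in Xap5 KO (log2 fold change 0.98, SE 0.189, edgeR adjusted p = 0.000286). Mcm10 was not called in Nono KO (log2 fold change 0.41, SE 0.187, edgeR adjusted p = 0.0771) or in Sox5 KO (log2 fold change 0.44, SE 0.188, edgeR adjusted p = 0.051). Gins1, a subunit of the GINS complex of the helicase, stood at 4.37 and 2.47 CPM in WT, 6.79, 5.43 and 5.69 in Xap5 KO, 4.47, 2.73 and 2.68 in Nono KO, and 5.54, 6.405 and 5.103 in Sox5 KO, levels where the WT libraries themselves were far apart (coefficient of variation 39.1%). Gins1 rose in Xap5 KO (log2 fold change 0.81, SE 0.271, edgeR adjusted p = 0.0193) and in Sox5 KO (log2 fold change 0.73, SE 0.272, edgeR adjusted p = 0.0244). Gins1 was not called in Nono KO (log2 fold change -0.05, SE 0.27, edgeR adjusted p = 0.896). The other GINS subunits include Gins3, which rose in Sox5 KO (log2 fold change 0.43, SE 0.181, edgeR adjusted p = 0.0468), and Gins2 and Gins4, which were not called against WT in any knockout with all libraries and TMM factors. Mcm10 gained a call in Nono KO with the length and GC offset (log2 fold change 0.47, adjusted p = 0.0429). Mcm10 also gained one in Sox5 KO without Nono KO replicate 2 or 3 or Sox5 KO replicate 1, with DESeq2 size factors, in DESeq2, in a fit of the compared groups alone or with the length and GC offset (adjusted p down to 0.00821). Cdc45 lost its call in Nono KO without WT replicate 1 or 2, Xap5 KO replicate 1, 2 or 3, Nono KO replicate 1 or 2 or Sox5 KO replicate 1, 2 or 3, with library totals alone, in a fit of the compared groups alone, with the length and GC offset or with the chromosome offset (adjusted p up to 0.333). Cdc45 also lost it in Sox5 KO without WT replicate 2 or with the length and GC offset (adjusted p up to 0.0872). Gins1 lost its call in Xap5 KO without WT replicate 2 or Xap5 KO replicate 1 or with the chromosome offset (adjusted p up to 0.296). Gins1 also lost it in Sox5 KO without WT replicate 2 or Sox5 KO replicate 2, with library totals alone, with the length and GC offset or with the chromosome offset (adjusted p up to 0.425). Gins1 was still called in Xap5 KO at a log2 fold change of 1.26 without WT replicate 1 (adjusted p = 0.00643). Gins1 was also still called in Sox5 KO at a log2 fold change of 1.19 without WT replicate 1 (adjusted p = 0.00575). Gins2 gained a call in Xap5 KO without Xap5 KO replicate 1 or with the chromosome offset (adjusted p down to 0.031). Gins2 also gained one in Sox5 KO without Xap5 KO replicate 1 or Nono KO replicate 3, in DESeq2 or in a fit of the compared groups alone (adjusted p down to 0.000992). Gins3 lost its call in Sox5 KO without WT replicate 2, Xap5 KO replicate 2 or 3, Nono KO replicate 1 or Sox5 KO replicate 1, 2 or 3, with library totals alone, in DESeq2, with the length and GC offset or with the chromosome offset (adjusted p up to 0.425). Gins3 gained a call in Nono KO without Nono KO replicate 2 or with library totals alone (adjusted p down to 0.0271). Gins3 was still called in Sox5 KO at a log2 fold change of 0.65 without WT replicate 1 (adjusted p = 0.0202). Gins4 gained a call in Xap5 KO with the chromosome offset (log2 fold change 0.32, adjusted p = 0.0344). Gins4 also gained one in Nono KO without Nono KO replicate 2, with library totals alone or with the length and GC offset (adjusted p down to 0.00491). Gins4 also gained one in Sox5 KO in a fit of the compared groups alone (log2 fold change 0.23, adjusted p = 0.0428).

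Polymerase alpha-primase makes the RNA-DNA primers of each Okazaki fragment. Of its 4 subunit genes 3 rose in Xap5 KO, 1 rose and 2 fell in Nono KO, and 2 rose in Sox5 KO. Prim2, the large primase subunit, stood at 11.6 and 12.5 CPM in WT, 25.2, 23.1 and 16.1 in Xap5 KO, 15.9, 18.2 and 14.3 in Nono KO, and 19.9, 19.96 and 19.3 in Sox5 KO. Every knockout library was above both WT libraries. Prim2 rose in Xap5 KO (log2 fold change 0.83, SE 0.155, edgeR adjusted p = 0.000158), in Nono KO (log2 fold change 0.42, SE 0.154, edgeR adjusted p = 0.0284) and in Sox5 KO (log2 fold change 0.71, SE 0.156, edgeR adjusted p = 0.000481). Pola1, the catalytic subunit of polymerase alpha, stood at 32.1 and 32.3 CPM in WT, 54.6, 63.1 and 47.04 in Xap5 KO, 25.6, 20.8 and 18.3 in Nono KO, and 29.5, 23.6 and 30.6 in Sox5 KO. Its Xap5 KO libraries were above all others, and those of Nono KO and Sox5 KO were below WT. Pola1 rose in Xap5 KO (log2 fold change 0.77, SE 0.147, edgeR adjusted p = 0.000516). Pola1 fell in Nono KO (log2 fold change -0.58, SE 0.145, edgeR adjusted p = 0.00395). Pola1 was not called in Sox5 KO (log2 fold change -0.21, SE 0.146, edgeR adjusted p = 0.237). Pola2, the accessory subunit, stood at 36.4 and 36.4 CPM in WT, 54.4, 49.1 and 42.1 in Xap5 KO, 28.8, 31.1 and 19.7 in Nono KO, and 50.7, 50.9 and 51.6 in Sox5 KO. It was above WT in all Xap5 KO and Sox5 KO libraries and below WT in all Nono KO libraries. Pola2 rose in Xap5 KO (log2 fold change 0.41, SE 0.152, edgeR adjusted p = 0.0403) and in Sox5 KO (log2 fold change 0.49, SE 0.153, edgeR adjusted p = 0.0135). Pola2 fell in Nono KO (log2 fold change -0.45, SE 0.151, edgeR adjusted p = 0.024). Prim1, the catalytic primase subunit, was not called against WT in any knockout with all libraries and TMM factors, at log2 fold changes of 0.16, 0.12 and 0.12. Pola1 lost its call in Nono KO with the chromosome offset (adjusted p = 0.294). Pola1 was still called in Xap5 KO at a log2 fold change of 0.41 with the chromosome offset (adjusted p = 0.0289). Pola2 lost its call in Xap5 KO without WT replicate 1 or 2, Xap5 KO replicate 1 or 2 or Sox5 KO replicate 1, 2 or 3, with library totals alone, with no filter or with the chromosome offset (adjusted p up to 0.163). Pola2 also lost it in Nono KO without WT replicate 1 or 2, in a fit of the compared groups alone or with the chromosome offset (adjusted p up to 0.105). Pola2 also lost it in Sox5 KO without WT replicate 1 or 2 or with the chromosome offset (adjusted p up to 0.62). Pola2 was still called in Nono KO at a log2 fold change of -0.28 without Nono KO replicate 3 (adjusted p = 0.0334). Prim1 gained a call in Xap5 KO with the chromosome offset (log2 fold change 0.63, adjusted p = 0.00959). Prim2 lost its call in Nono KO without WT replicate 1 or 2 or Nono KO replicate 2, with library totals alone or with the length and GC offset (adjusted p up to 0.158).

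Polymerases epsilon and delta copy the leading and the lagging strand. Their 5 genes gave 2 rises in Xap5 KO, 2 falls in Nono KO, and 1 rise and 2 falls in Sox5 KO. Pole, the catalytic subunit of polymerase epsilon, stood at 20.5 and 21.1 CPM in WT, 35.2, 34.95 and 37.2 in Xap5 KO, 23.9, 22.99 and 15.4 in Nono KO, and 10.7, 14.7 and 13.4 in Sox5 KO. The Xap5 KO libraries were above all others and the Sox5 KO libraries below all others. Pole rose in Xap5 KO (log2 fold change 0.78, SE 0.155, edgeR adjusted p = 0.000466). Pole fell in Sox5 KO (log2 fold change -0.69, SE 0.156, edgeR adjusted p = 0.000923). Pole was not called in Nono KO (log2 fold change -0.0018, SE 0.154, edgeR adjusted p = 0.998). Pole2, an accessory subunit of the same enzyme, stood at 12.03 and 12.2 CPM in WT, 11.7, 11.4 and 9.25 in Xap5 KO, 12.5, 12.4 and 9.91 in Nono KO, and 6.77, 6.07 and 6.22 in Sox5 KO. The Sox5 KO libraries were at about 0.524 times the WT level and overlapped no other group. Pole2 fell in Sox5 KO (log2 fold change -0.93, SE 0.158, edgeR adjusted p = 2.9e-05). Pole2 was not called in Xap5 KO (log2 fold change -0.17, SE 0.155, edgeR adjusted p = 0.396) or in Nono KO (log2 fold change -0.06, SE 0.155, edgeR adjusted p = 0.77). Pold2, a subunit of polymerase delta, stood at 20.7 and 20.4 CPM in WT, 28.7, 28.6 and 25.2 in Xap5 KO, 24.2, 22.1 and 18.4 in Nono KO, and 32.2, 28.2 and 31.3 in Sox5 KO. It was above WT in all Xap5 KO and Sox5 KO libraries. Pold2 rose in Xap5 KO (log2 fold change 0.42, SE 0.114, edgeR adjusted p = 0.00478) and in Sox5 KO (log2 fold change 0.57, SE 0.115, edgeR adjusted p = 0.000196). Pold2 was not called in Nono KO (log2 fold change 0.07, SE 0.114, edgeR adjusted p = 0.643). Pold3, another delta subunit, fell in Nono KO (log2 fold change -0.64, SE 0.177, edgeR adjusted p = 0.00531), as did the catalytic subunit Pold1 (log2 fold change -0.45, SE 0.143, edgeR adjusted p = 0.0135). Pold1 lost its call in Nono KO without WT replicate 1 or Nono KO replicate 3, with the length and GC offset or with the chromosome offset (adjusted p up to 0.137). Pold1 gained a call in Sox5 KO without Xap5 KO replicate 2 or Nono KO replicate 2 or 3, with library totals alone, in a fit of the compared groups alone or with the chromosome offset (adjusted p down to 0.00622). Pold2 lost its call in Sox5 KO with the length and GC offset (adjusted p = 0.142). Pold3 gained a call in Sox5 KO without Nono KO replicate 1, with library totals alone, in a fit of the compared groups alone or with the chromosome offset (adjusted p down to 0.0137). Pole lost its call in Sox5 KO with the length and GC offset (adjusted p = 0.0978). Pole2 lost its call in Sox5 KO with the chromosome offset (adjusted p = 0.413).

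The sliding clamp PCNA tethers polymerases to DNA and is placed there by the RFC clamp loader. Of the 6 genes 3 rose in Xap5 KO, 1 rose and 1 fell in Nono KO, and 1 rose and 2 fell in Sox5 KO. Pcna, which also has annotated pseudogenes that could share reads, stood at 89.3 and 84.7 CPM in WT, 133, 141 and 119 in Xap5 KO, 89.3, 96.1 and 72.3 in Nono KO, and 131, 119.9 and 121 in Sox5 KO. All Xap5 KO and Sox5 KO libraries were above WT, and Nono KO overlapped it. Pcna rose in Xap5 KO (log2 fold change 0.59, SE 0.0985, edgeR adjusted p = 0.000122) and in Sox5 KO (log2 fold change 0.51, SE 0.0986, edgeR adjusted p = 0.00026). Pcna was not called in Nono KO (log2 fold change -0.02, SE 0.0975, edgeR adjusted p = 0.908). Rfc1, the large loader subunit, stood at 79.3 and 84.6 CPM in WT, 90.7, 89.6 and 84.4 in Xap5 KO, 53.2, 53.6 and 54.96 in Nono KO, and 47.8, 52.1 and 49.2 in Sox5 KO. The 6 Nono KO and Sox5 KO libraries were all below WT. Rfc1 fell in Nono KO (log2 fold change -0.60, SE 0.0694, edgeR adjusted p = 3.06e-07) and in Sox5 KO (log2 fold change -0.72, SE 0.0698, edgeR adjusted p = 1.27e-08). Rfc1 was not called in Xap5 KO (log2 fold change 0.11, SE 0.0698, edgeR adjusted p = 0.227). Rfc4, a small loader subunit, stood at 6.72 and 5.38 CPM in WT, 7.59, 9.25 and 8.47 in Xap5 KO, 13.7, 7.57 and 9.58 in Nono KO, and 7.61, 6.03 and 7.72 in Sox5 KO. Its Nono KO libraries were all above WT. Rfc4 rose in Nono KO (log2 fold change 0.76, SE 0.217, edgeR adjusted p = 0.00581). Rfc4 was not called in Xap5 KO (log2 fold change 0.48, SE 0.216, edgeR adjusted p = 0.0755) or in Sox5 KO (log2 fold change 0.24, SE 0.217, edgeR adjusted p = 0.361). Among the other small subunits, Rfc5 rose in Xap5 KO (log2 fold change 0.75, SE 0.167, edgeR adjusted p = 0.00092), Rfc2 rose there too (log2 fold change 0.34, SE 0.116, edgeR adjusted p = 0.0208), and Rfc3 fell in Sox5 KO (log2 fold change -0.58, SE 0.156, edgeR adjusted p = 0.00283). Pcna was still called in Sox5 KO at a log2 fold change of 0.22 with the length and GC offset (adjusted p = 0.0489). Rfc1 was still called in Nono KO at a log2 fold change of -0.39 with the chromosome offset (adjusted p = 0.000103). Rfc2 lost its call in Xap5 KO without WT replicate 1 or 2 or Xap5 KO replicate 1 or 2 or with the chromosome offset (adjusted p up to 0.123). Rfc4 lost its call in Nono KO without WT replicate 2 or Nono KO replicate 1 or with the chromosome offset (adjusted p up to 0.085). Rfc4 gained a call in Xap5 KO without Nono KO replicate 1 or 2 (adjusted p down to 0.0452).

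Replication protein A covers single-stranded DNA, and FEN1 and LIG1 trim and seal Okazaki fragments. Of these 5 genes 4 rose in Xap5 KO, 2 fell in Nono KO and 2 rose in Sox5 KO. Fen1 stood at 30.3 and 27.4 CPM in WT, 38.6, 42.01 and 38.2 in Xap5 KO, 23.5, 26.1 and 17.8 in Nono KO, and 31.8, 39.3 and 35.2 in Sox5 KO. It was above WT in all Xap5 KO and Sox5 KO libraries and below WT in all Nono KO libraries. Fen1 rose in Xap5 KO (log2 fold change 0.46, SE 0.127, edgeR adjusted p = 0.00593) and in Sox5 KO (log2 fold change 0.30, SE 0.127, edgeR adjusted p = 0.0497). Fen1 fell in Nono KO (log2 fold change -0.36, SE 0.126, edgeR adjusted p = 0.0242). Lig1 stood at 48.5 and 42.8 CPM in WT, 64.2, 56.1 and 52.6 in Xap5 KO, 34.03, 39.8 and 29.1 in Nono KO, and 39.4, 41.99 and 41.2 in Sox5 KO. Its Xap5 KO libraries were above WT and all Nono KO and Sox5 KO libraries below. Lig1 rose in Xap5 KO (log2 fold change 0.34, SE 0.111, edgeR adjusted p = 0.0179). Lig1 fell in Nono KO (log2 fold change -0.41, SE 0.11, edgeR adjusted p = 0.00401). Lig1 was not called in Sox5 KO (log2 fold change -0.16, SE 0.111, edgeR adjusted p = 0.224). Rpa1, the large RPA subunit, rose in Xap5 KO (log2 fold change 0.28, SE 0.0667, edgeR adjusted p = 0.00184) and Sox5 KO (log2 fold change 0.26, SE 0.0668, edgeR adjusted p = 0.00202), Rpa2 rose in Xap5 KO (log2 fold change 0.48, SE 0.155, edgeR adjusted p = 0.0146), and Rpa3 was not called against WT in any knockout with all libraries and TMM factors. Rpa1 lost its call in Sox5 KO with library totals alone or with the chromosome offset (adjusted p up to 0.15). Rpa1 gained a call in Nono KO with library totals alone (log2 fold change -0.22, adjusted p = 0.00796). Rpa1 was still called in Sox5 KO at a log2 fold change of 0.47 with the length and GC offset (adjusted p = 2.98e-06). Rpa2 lost its call in Xap5 KO without WT replicate 1 or 2 or Xap5 KO replicate 2 or 3 (adjusted p up to 0.0894). Rpa3 gained a call in Xap5 KO with the length and GC offset (log2 fold change -0.44, adjusted p = 0.0199). Rpa3 also gained one in Sox5 KO with the length and GC offset (log2 fold change -0.39, adjusted p = 0.0312). Rpa3 also gained one in Sox5 KO with the chromosome offset (log2 fold change 0.51, adjusted p = 0.0105). Fen1 lost its call in Xap5 KO without WT replicate 2 (adjusted p = 0.0853). Fen1 also lost it in Nono KO without WT replicate 1 or Nono KO replicate 3, in a fit of the compared groups alone or with the chromosome offset (adjusted p up to 0.186). Fen1 also lost it in Sox5 KO without WT replicate 1 or 2, Xap5 KO replicate 1, 2 or 3, Nono KO replicate 1 or Sox5 KO replicate 2 or 3, with library totals alone, in DESeq2, with the length and GC offset or with the chromosome offset (adjusted p up to 0.842). Lig1 lost its call in Xap5 KO without WT replicate 2 or Xap5 KO replicate 1 (adjusted p up to 0.208). Lig1 also lost it in Nono KO without WT replicate 1 or with the chromosome offset (adjusted p up to 0.0909). Lig1 gained a call in Sox5 KO with library totals alone, with the length and GC offset or with the chromosome offset (adjusted p down to 0.0087).

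The genes that supply nucleotides held the largest rise of any member in each comparison with WT. Of 5 genes 4 rose in Xap5 KO and in Sox5 KO, 3 rose in Nono KO, and none fell. Tyms, the thymidylate synthase, has an annotated pseudogene and stood at 15.1 and 11.2 CPM in WT, 40.1, 37.2 and 34.96 in Xap5 KO, 17.4, 18.7 and 14.7 in Nono KO, and 18.8, 17.4 and 15.7 in Sox5 KO. The Xap5 KO libraries, at 2.85-fold the WT level, were above all others. Tyms rose in Xap5 KO (log2 fold change 1.51, SE 0.136, edgeR adjusted p = 1.12e-08), in Nono KO (log2 fold change 0.37, SE 0.134, edgeR adjusted p = 0.0288) and in Sox5 KO (log2 fold change 0.40, SE 0.135, edgeR adjusted p = 0.0153). Tk1, the thymidine kinase of the salvage route, stood at 8.73 and 8.67 CPM in WT, 20.7, 25.02 and 23.6 in Xap5 KO, 15.3, 15.8 and 8.56 in Nono KO, and 21.4, 22.9 and 23.8 in Sox5 KO. Xap5 KO and Sox5 KO were both clear of WT, while Nono KO replicate 3 lay below the WT libraries and the other Nono KO libraries above them. Tk1 rose in Xap5 KO (log2 fold change 1.41, SE 0.198, edgeR adjusted p = 2.29e-05), in Nono KO (log2 fold change 0.61, SE 0.196, edgeR adjusted p = 0.0176) and in Sox5 KO (log2 fold change 1.38, SE 0.199, edgeR adjusted p = 1.46e-05). Dut, the dUTPase that keeps uracil out of DNA, stood at 14.2 and 12.3 CPM in WT, 14.7, 15.4 and 18.3 in Xap5 KO, 25.8, 22.6 and 21.6 in Nono KO, and 24.8, 27.3 and 25.2 in Sox5 KO. Every knockout library was above both WT libraries. Dut rose in Nono KO (log2 fold change 0.81, SE 0.125, edgeR adjusted p = 1.39e-05) and in Sox5 KO (log2 fold change 0.96, SE 0.126, edgeR adjusted p = 1.09e-06). Dut was not called in Xap5 KO (log2 fold change 0.28, SE 0.124, edgeR adjusted p = 0.0694). Rrm2, the small subunit of ribonucleotide reductase, stood at 31.5 and 24.3 CPM in WT, 52.4, 64.1 and 58.3 in Xap5 KO, 41.2, 39.8 and 25.4 in Nono KO, and 26.3, 24.2 and 25.96 in Sox5 KO. Only its Xap5 KO libraries were clear of WT. Rrm2 rose in Xap5 KO (log2 fold change 1.06, SE 0.195, edgeR adjusted p = 0.00114). Rrm2 was not called in Nono KO (log2 fold change 0.35, SE 0.192, edgeR adjusted p = 0.166) or in Sox5 KO (log2 fold change -0.13, SE 0.193, edgeR adjusted p = 0.595). Rrm1, the large subunit of that enzyme, rose in Xap5 KO (log2 fold change 1.05, SE 0.0996, edgeR adjusted p = 2.41e-07) and Sox5 KO (log2 fold change 0.29, SE 0.098, edgeR adjusted p = 0.0167). Tyms lost its call in Nono KO without WT replicate 2 or Nono KO replicate 1 or 2, with library totals alone or in a fit of the compared groups alone (adjusted p up to 0.404). Tyms also lost it in Sox5 KO without WT replicate 2 or Sox5 KO replicate 1 or with library totals alone (adjusted p up to 0.316). Tyms was still called in Nono KO at a log2 fold change of 0.58 with the chromosome offset (adjusted p = 0.00117). Tyms was also still called in Nono KO at a log2 fold change of 0.59 without WT replicate 1 (adjusted p = 0.0061). Tyms was also still called in Sox5 KO at a log2 fold change of 0.61 without WT replicate 1 (adjusted p = 0.00344). Rrm1 lost its call in Sox5 KO without WT replicate 2 or Sox5 KO replicate 2 or 3, with library totals alone or with the chromosome offset (adjusted p up to 0.404). Rrm1 gained a call in Nono KO with the chromosome offset (log2 fold change 0.31, adjusted p = 0.016). Rrm1 was still called in Sox5 KO at a log2 fold change of 0.66 with the length and GC offset (adjusted p = 9.12e-05). Rrm2 gained a call in Sox5 KO with the chromosome offset (log2 fold change 0.64, adjusted p = 0.0135). Tk1 lost its call in Nono KO without WT replicate 1 or 2 or Nono KO replicate 1 or 2 or with library totals alone (adjusted p up to 0.0937). Dut gained a call in Xap5 KO without Xap5 KO replicate 1 (log2 fold change 0.33, adjusted p = 0.0467).

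All 3 genes of chromatin assembly and maintenance rose in Xap5 KO, 1 fell in Nono KO and none was called in Sox5 KO. Chaf1b, a subunit of the CAF-1 complex that places histones behind the fork, stood at 18.04 and 17.97 CPM in WT, 28.3, 33.7 and 29.5 in Xap5 KO, 12.1, 14.3 and 7.93 in Nono KO, and 17.9, 18.7 and 15.6 in Sox5 KO. Its Xap5 KO libraries were above all others and its Nono KO libraries below all others. Chaf1b rose in Xap5 KO (log2 fold change 0.76, SE 0.173, edgeR adjusted p = 0.00163). Chaf1b fell in Nono KO (log2 fold change -0.65, SE 0.172, edgeR adjusted p = 0.00453). Chaf1b was not called in Sox5 KO (log2 fold change -0.05, SE 0.172, edgeR adjusted p = 0.822). Uhrf1, which brings the maintenance DNA methyltransferase to new DNA, stood at 60.1 and 50.5 CPM in WT, 109.8, 114 and 106 in Xap5 KO, 53.4, 63.3 and 38.2 in Nono KO, and 54.3, 59.7 and 61.4 in Sox5 KO. The Xap5 KO libraries were above all others, and the rest overlapped. Uhrf1 rose in Xap5 KO (log2 fold change 0.99, SE 0.178, edgeR adjusted p = 0.00141). Uhrf1 was not called in Nono KO (log2 fold change -0.10, SE 0.175, edgeR adjusted p = 0.687) or in Sox5 KO (log2 fold change 0.08, SE 0.175, edgeR adjusted p = 0.719). Chaf1a, the large CAF-1 subunit, also rose in Xap5 KO (log2 fold change 0.95, SE 0.139, edgeR adjusted p = 4.53e-05) and was not called in Nono KO or Sox5 KO. The Xap5 KO calls of these genes held in every alternative tried that did not ask for a minimum fold change. Chaf1a gained a call in Sox5 KO with the length and GC offset (log2 fold change 0.41, adjusted p = 0.0181).

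The G1/S regulators are cyclins E1 and E2, which activate CDK2, and E2F1, an activating E2F. All 3 genes rose in Xap5 KO, 1 fell in Nono KO and 1 rose in Sox5 KO. Ccne1 stood at 14.5 and 13.7 CPM in WT, 32.3, 31.5 and 32.4 in Xap5 KO, 12.3, 14.1 and 9.804 in Nono KO, and 27.6, 25.01 and 27.6 in Sox5 KO. Xap5 KO and Sox5 KO lay above WT in all libraries. Ccne1 rose in Xap5 KO (log2 fold change 1.19, SE 0.126, edgeR adjusted p = 1.22e-07) and in Sox5 KO (log2 fold change 0.93, SE 0.126, edgeR adjusted p = 1.73e-06). Ccne1 was not called in Nono KO (log2 fold change -0.22, SE 0.125, edgeR adjusted p = 0.158). Ccne2 stood at 11.7 and 10.1 CPM in WT, 18.9, 22.7 and 20.02 in Xap5 KO, 17.2, 14.3 and 7.32 in Nono KO, and 7.17, 6.61 and 7.56 in Sox5 KO. Its Xap5 KO libraries were above WT and its Sox5 KO libraries below. Ccne2 rose in Xap5 KO (log2 fold change 0.92, SE 0.264, edgeR adjusted p = 0.0131). Ccne2 was not called in Nono KO (log2 fold change 0.25, SE 0.261, edgeR adjusted p = 0.461) or in Sox5 KO (log2 fold change -0.61, SE 0.265, edgeR adjusted p = 0.0631). E2f1 stood at 45.01 and 50.3 CPM in WT, 66.4, 60.8 and 62.7 in Xap5 KO, 36.1, 36.6 and 33.1 in Nono KO, and 48.5, 56.02 and 55.7 in Sox5 KO. The Xap5 KO libraries were above all others and the Nono KO libraries below all others. E2f1 rose in Xap5 KO (log2 fold change 0.41, SE 0.0879, edgeR adjusted p = 0.000664). E2f1 fell in Nono KO (log2 fold change -0.43, SE 0.0872, edgeR adjusted p = 0.000299). E2f1 was not called in Sox5 KO (log2 fold change 0.16, SE 0.0878, edgeR adjusted p = 0.115). Ccne1 gained a call in Nono KO without Nono KO replicate 2 or with library totals alone (adjusted p down to 0.0142). Ccne1 was still called in Sox5 KO at a log2 fold change of 0.59 with the length and GC offset (adjusted p = 0.000337). Ccne2 lost its call in Xap5 KO without WT replicate 1 or 2 (adjusted p up to 0.114). Ccne2 gained a call in Sox5 KO without Nono KO replicate 1 or 3, with library totals alone, in DESeq2 or in a fit of the compared groups alone (adjusted p down to 0.000821). E2f1 gained a call in Sox5 KO without Sox5 KO replicate 1 (log2 fold change 0.23, adjusted p = 0.0367). E2f1 was still called in Xap5 KO at a log2 fold change of 0.26 with the chromosome offset (adjusted p = 0.0241).

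Comparing the knockouts with each other leaves WT out of the difference, although each of these comparisons shares libraries with the others. Between Xap5 KO and Nono KO, 38 of 48 members were higher in Xap5 KO and 1 was lower, where 27.1% of all genes were called higher and 25.9% lower, and the median log2 difference was 0.65. The member that was lower in Xap5 KO was Dut (log2 fold change -0.53, SE 0.109, edgeR adjusted p = 0.000319). Large differences included Ccne1 (log2 fold change 1.41, SE 0.111, edgeR adjusted p = 9.78e-10), Chaf1b (log2 fold change 1.41, SE 0.156, edgeR adjusted p = 7.19e-07) and Pola1 (log2 fold change 1.35, SE 0.132, edgeR adjusted p = 4.53e-07). Between Xap5 KO and Sox5 KO, 26 members were higher in Xap5 KO and 8 lower, against 31.1% and 30.4% of all genes, with a median of 0.38. Ccne2 (log2 fold change 1.53, SE 0.24, edgeR adjusted p = 0.000111) and Pole (log2 fold change 1.47, SE 0.142, edgeR adjusted p = 5.76e-08) were higher in Xap5 KO, and Mcm5 (log2 fold change -0.69, SE 0.125, edgeR adjusted p = 0.000187) was lower. Between Nono KO and Sox5 KO, 6 members were higher in Nono KO and 21 lower, against 30.9% and 32.6% of all genes, with a median of -0.24 that was -0.0965 without Nono KO replicate 3. Ccne1 (log2 fold change -1.14, SE 0.112, edgeR adjusted p = 1.28e-08) and Mcm6 (log2 fold change -1.02, SE 0.146, edgeR adjusted p = 0.000227) were lower in Nono KO, and Pole2 (log2 fold change 0.87, SE 0.145, edgeR adjusted p = 2.12e-05) was higher. With the chromosome offset, Pola1 differed by a log2 of 0.61 between Xap5 KO and Nono KO and was still called by edgeR (adjusted p = 0.000887). With the same offset, the calls of Mcm5 between Xap5 KO and Sox5 KO (adjusted p = 0.59) and of Pole2 between Nono KO and Sox5 KO (adjusted p = 0.565) were lost. The count of 6 fell to 3 without Nono KO replicate 1 and to 3 without Sox5 KO replicate 2. The count of 1 lower between Xap5 KO and Nono KO was 2 without Nono KO replicate 2.

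Nono KO replicate 3 stood apart for these genes. It was the lowest of the 3 Nono KO libraries for 44 of the 48 members (91.7%), where it was the lowest for 33.2% of all genes, and its median log2 difference from the other 2 was -0.399. For Cdc6 it had 5.55 CPM against 7.25 and 12.7, and for Tk1 8.56 against 15.3 and 15.8. It was also the lowest of the 3 for 24 of 24 genes of G2 and mitosis. Over all genes, leaving out any 1 library gave 2564 to 3242 called higher and 2556 to 3379 lower in Nono KO against WT. Without Nono KO replicate 3, 10 members were called higher and 11 lower there, and the median log2 fold change was 0.0208 in place of -0.09, so its sign changed. Pold1 (adjusted p = 0.0543) and Fen1 (adjusted p = 0.111) were then no longer called by edgeR, and Mcm10 (adjusted p = 0.00277), Rrm1 (adjusted p = 0.036), Rrm2 (adjusted p = 0.000763) and Ccne2 (adjusted p = 0.00637) were called higher. Mcm6 remained called lower, with a log2 fold change of -0.53. What set this library apart was not tested.

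Fold changes also moved with chromosomes. In Sox5 KO the median over all tested genes of chromosome 12 was -0.75, and that chromosome holds 2 members, Pole2 and Rrm2. After each chromosome's median was subtracted, Pole2 went from a log2 fold change of -0.93 to -0.16 and was not called (edgeR adjusted p = 0.413), and Rrm2 went from -0.13 to 0.64 and was called higher (edgeR adjusted p = 0.0135). Chromosome 8 holds 6 members, Orc6, Cdt1, Mcm5, Gins2, Gins3 and Gins4. The median of all genes there was 0.236 in Sox5 KO, -0.126 in Nono KO and -0.348 in Xap5 KO. The 6 members had medians of 0.444, -0.254 and -0.088 in the same order, against 0.14, -0.068 and 0.482 for the other members. On chromosome X the median was 0.356 in Xap5 KO and -0.331 in Nono KO, and Pola1 lies there. On chromosome 6 it was -0.349 in Sox5 KO, where Mcm2 lies. On chromosome 10 it was -0.464 in Xap5 KO, and Prim1 there went from 0.16 to 0.63 with the offset (edgeR adjusted p = 0.00959). Chromosome 19 had a median of 0.386 in Sox5 KO and holds Pola2 and Fen1. With the offset, Pola2 went from 0.49 to 0.09 (edgeR adjusted p = 0.62) and Fen1 from 0.30 to -0.10 (edgeR adjusted p = 0.525). With chromosome medians subtracted, 30 members rose and 1 fell in Xap5 KO, 5 rose and 8 fell in Nono KO, and 14 rose and 7 fell in Sox5 KO. The shares of all genes called in that fit are not given here, so these counts are not read against them. What moved the chromosome medians was not tested.

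**Figure D4:**
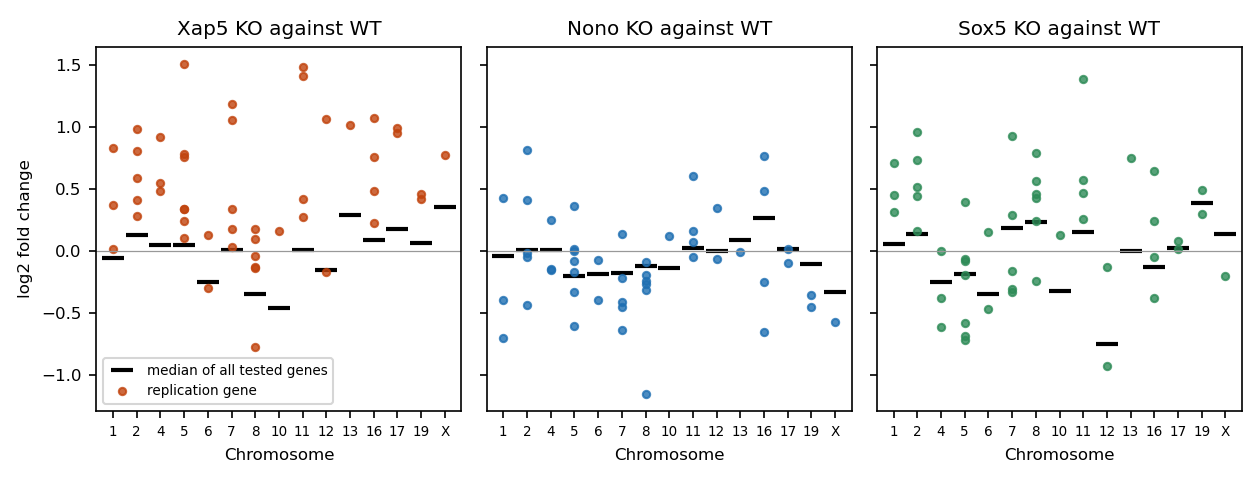
Median log2 fold change against WT of all tested genes on each chromosome that holds a member, with the 48 members as points at their own chromosome (x axis), 1 panel per knockout. Chromosomes without a member are not drawn. The median lies at -0.75 on chromosome 12 in Sox5 KO, and at -0.464 on chromosome 10 and -0.348 on chromosome 8 in Xap5 KO. The members there lie above or below these medians to different degrees.

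Other genes of replication and the fork, 35 in all and listed by name, gave 17 rises and 4 falls in Xap5 KO, 5 rises and 7 falls in Nono KO and 11 rises and 6 falls in Sox5 KO. The shares that rose were 48.6%, 14.3% and 31.4%, against 23.2%, 23.5% and 30.6% of all genes, so the Sox5 KO share was near that of all genes. Their medians were 0.34, 0.02 and 0.10. Chtf18, part of an alternative clamp loader, stood at 7.44 and 9.15 CPM in WT, 20.8, 22.03 and 20.4 in Xap5 KO, 13.97, 15.1 and 9.78 in Nono KO, and 8.597, 10.5 and 11.5 in Sox5 KO. It was above WT in all Xap5 KO libraries. Chtf18 rose in Xap5 KO (log2 fold change 1.34, SE 0.175, edgeR adjusted p = 2.05e-06) and in Nono KO (log2 fold change 0.64, SE 0.173, edgeR adjusted p = 0.00391). Chtf18 was not called in Sox5 KO (log2 fold change 0.30, SE 0.174, edgeR adjusted p = 0.149). Clspn, the checkpoint adaptor claspin, rose in Xap5 KO (log2 fold change 1.08, SE 0.135, edgeR adjusted p = 1.18e-06) and fell in Sox5 KO (log2 fold change -0.57, SE 0.135, edgeR adjusted p = 0.000948). Recql4, which encodes a RecQ-family helicase, also rose in Xap5 KO (log2 fold change 1.09, SE 0.223, edgeR adjusted p = 0.000428).

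Among 18 genes of E2F factors, pocket proteins and S-phase kinases, 7 rose and 4 fell in Xap5 KO, 4 rose and 4 fell in Nono KO, and 4 rose and 2 fell in Sox5 KO. The shares that rose were 38.9%, 22.2% and 22.2%, the last 2 not above those of all genes. Falls made up 22.2%, 22.2% and 11.1%, against 22.3%, 25.1% and 30.3% of all genes. Medians were 0.33, -0.06 and 0.18. E2f6, a repressor of the E2F family that does not bind pocket proteins, had 179 and 202 counts in WT, 0, 2 and 0 in Xap5 KO, 139, 142 and 46 in Nono KO, and 0 in all 3 Sox5 KO libraries. Xap5 KO and Sox5 KO thus had next to no E2f6 reads. Taken against a floor of 3 counts per library, WT exceeded Sox5 KO by at least 44.4-fold. From summed counts of 381 and 2, the WT level was 268.1-fold that in Xap5 KO (95% exact binomial interval 73.7 to 2222). That interval treats the estimated counts as single independent reads and leaves out the spread between libraries, so it may be too narrow. E2f6 was not called in Nono KO (log2 fold change -0.73, SE 0.463, edgeR adjusted p = 0.21). Ccna2, which encodes the S-phase and G2 cyclin A2, stood at 29.8 and 21.4 CPM in WT, 64.4, 69.7 and 58.4 in Xap5 KO, 44.6, 56.1 and 31.1 in Nono KO, and 36.6, 36.6 and 39.3 in Sox5 KO. It was above WT in every knockout library. Ccna2 rose in Xap5 KO (log2 fold change 1.33, SE 0.24, edgeR adjusted p = 0.00194) and in Nono KO (log2 fold change 0.78, SE 0.237, edgeR adjusted p = 0.0241). Ccna2 was not called in Sox5 KO (log2 fold change 0.55, SE 0.237, edgeR adjusted p = 0.0744). E2f8, an E2F that represses late in S phase, rose in Xap5 KO (log2 fold change 1.02, SE 0.223, edgeR adjusted p = 0.00134), and Myc, a growth-promoting transcription factor, rose in Nono KO (log2 fold change 1.02, SE 0.163, edgeR adjusted p = 0.000327) and Sox5 KO (log2 fold change 0.61, SE 0.162, edgeR adjusted p = 0.00681).

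Of 12 G1 cyclins and CDK inhibitors, 9 passed the filter, and 3 rose and 4 fell in Xap5 KO, 5 rose and 2 fell in Nono KO, and 3 rose and 4 fell in Sox5 KO. With 9 genes, rises made up 33.3%, 55.6% and 33.3% of the list, against 23.2%, 23.5% and 30.6% of all genes. Falls made up 44.4%, 22.2% and 44.4%, against 22.3%, 25.1% and 30.3%. Their medians were -0.07, 0.30 and -0.10. Cdkn2a, Cdkn2b and Cdkn1c, which encode CDK inhibitors, had 0 counts in every library. Ccnd2, which encodes the G1 cyclin D2, stood at 206 and 211 CPM in WT, 159.9, 161 and 156 in Xap5 KO, 405, 409 and 429.7 in Nono KO, and 102, 115 and 115 in Sox5 KO. Nono KO was above WT in all libraries, and Xap5 KO and Sox5 KO were below. Ccnd2 rose in Nono KO (log2 fold change 0.99, SE 0.0623, edgeR adjusted p = 2.44e-11). Ccnd2 fell in Xap5 KO (log2 fold change -0.39, SE 0.0603, edgeR adjusted p = 1.74e-05) and in Sox5 KO (log2 fold change -0.92, SE 0.0604, edgeR adjusted p = 3.17e-11). Cdk6, a partner of D cyclins, fell in Sox5 KO (log2 fold change -1.30, SE 0.0804, edgeR adjusted p = 1.04e-11), as did Cdkn1b, which encodes the CDK inhibitor p27 (log2 fold change -0.82, SE 0.0787, edgeR adjusted p = 1.18e-08). Cdkn2d, an inhibitor of CDK4 and CDK6, rose in Sox5 KO (log2 fold change 0.97, SE 0.162, edgeR adjusted p = 2.52e-05).

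Genes of G2 and mitosis act after replication, and most of those listed rose in each knockout. Of 24 genes 22 rose and 1 fell in Xap5 KO, 16 rose in Nono KO, and 15 rose and 3 fell in Sox5 KO, with medians of 1.16, 0.60 and 0.49. Rises made up 91.7%, 66.7% and 62.5% of the list, against 23.2%, 23.5% and 30.6% of all genes, and in Nono KO the other 8 genes were not called. Falls made up 4.2% in Xap5 KO and 12.5% in Sox5 KO, against 22.3% and 30.3% of all genes. The mean log2 level over the 24 genes relative to WT was 0.997 to 1.116 with Xap5 KO, 0.391 to 0.525 with Sox5 KO and 0.323 to 0.784 with Nono KO, and the WT libraries lay 0.158 to either side of their mean. For the 48 replication genes the same measure was 0.433 to 0.54 with Xap5 KO, 0.141 to 0.159 with Sox5 KO and -0.425 to 0.056 with Nono KO, with the WT libraries at 0.048 and -0.048. In Nono KO the mitotic genes were thus above both WT libraries in all 3 libraries. The replication genes stood at -0.016, 0.056 and -0.425 in Nono KO replicates 1, 2 and 3. Replicate 1 lay between the WT libraries, replicate 2 was just above them, and only replicate 3 was below both. Ccnb2, a mitotic cyclin, stood at 3.97 and 2.68 CPM in WT, 6.72, 7.23 and 5.41 in Xap5 KO, 6.24, 6.41 and 4.53 in Nono KO, and 13.02, 12.6 and 11.2 in Sox5 KO. It was highest in Sox5 KO. Ccnb2 rose in Xap5 KO (log2 fold change 0.96, SE 0.217, edgeR adjusted p = 0.00105), in Nono KO (log2 fold change 0.79, SE 0.216, edgeR adjusted p = 0.00463) and in Sox5 KO (log2 fold change 1.89, SE 0.221, edgeR adjusted p = 2.12e-07). Mybl2, a transcription factor of late G1 to mitosis, rose in Xap5 KO (log2 fold change 1.68, SE 0.188, edgeR adjusted p = 2.72e-07), the mitotic kinesin gene Kif20a rose there as well (log2 fold change 1.53, SE 0.151, edgeR adjusted p = 3.95e-07), and so did Ube2c, a ubiquitin-conjugating enzyme of mitotic exit (log2 fold change 1.51, SE 0.217, edgeR adjusted p = 9.66e-05).

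**Figure D5:**
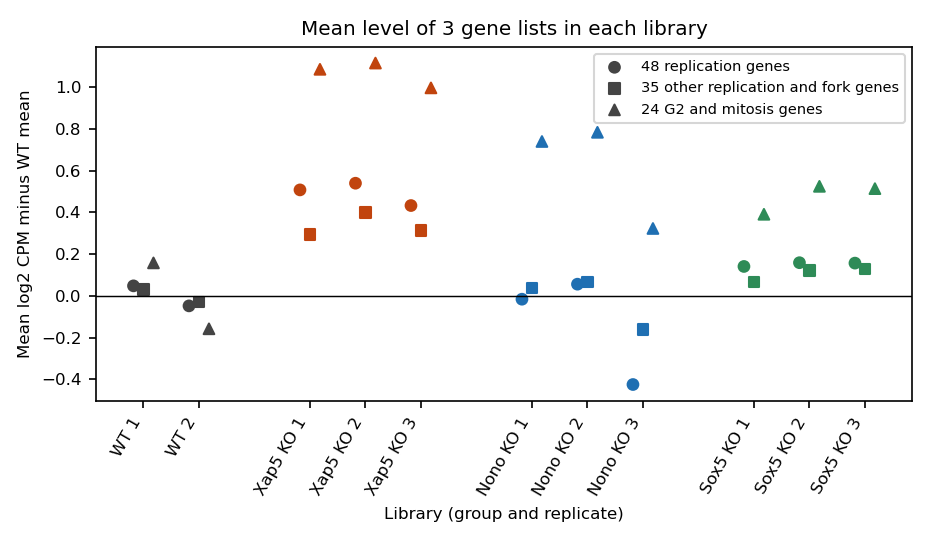
Mean log2 CPM minus the WT mean (y axis) of the 48 replication genes, the 35 other replication and fork genes and the 24 genes of G2 and mitosis in each of the 11 libraries (x axis). The mitotic genes lie between 0.323 and 1.116 in all knockout libraries, above the replication genes, which lie between -0.425 and 0.54.

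Tested genes outside all the lists used here, markers included, were ranked by how closely their log2 level followed the mean of the 48 members across the 11 libraries. Listed replication, E2F, G1 and mitotic genes were thus not ranked. The closest were Cenpi, a centromere protein gene (r = 0.968), Incenp, of the chromosomal passenger complex (r = 0.962), Bag1 (r = 0.962), Ccnf (r = 0.96) and Tacc3 (r = 0.958). These values describe 11 libraries that share groups of 2 or 3 and are not independent. Cenpi stood at 8.06 and 6.45 CPM in WT, 18.8, 21.6 and 18.5 in Xap5 KO, 6.47, 6.75 and 4.39 in Nono KO, and 10.1, 10.8 and 11.9 in Sox5 KO, which puts the Xap5 KO libraries highest and Nono KO replicate 3 lowest.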

How the data were processed

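Total RNA from TRIzol extracts was made into libraries with the NEBNext Ultra II RNA kit, per the labels' protocols. The authors deposited 1 table of estimated counts per gene for 11 libraries, stored as whole numbers, so rounding changed nothing. HISAT2 2.1.0, StringTie 1.3.3b, DESeq2 1.12.4 and a mm39 build are listed in the submitters' processing notes without role or order. Annotation and strand handling are not given in the sources used here. The unit was judged from the values, in which a count of 1 occurred 857 times and a count of 2 occurred 3302 times. Groups came from the sample titles.

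Counts were tested with edgeR 4.0.16 in R 4.3.3: filterByExpr (minimum count 10, minimum total 15), TMM factors and 1 robust quasi-likelihood fit of all 11 libraries with a mean per group. p-values were Benjamini-Hochberg adjusted over 13332 genes and called under 0.05. The SE is the absolute log2 fold change over the square root of F. The procedure was also run on simulated counts with far fewer changed genes than were called here, and the outcome is not given here. No 2 libraries of a group agreed within sampling noise (chi-square per degree of freedom of 9.03 to 30.81). GENCODE M21 (GRCm38) gave chromosome, length, GC content and overlaps for 21540 of 21684 gene IDs. Exons of 16 members overlap those of another gene, 3 sharing the strand and 14 on the other strand, so reads could be shared there.

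In each role group, values in every library were given for up to 4 members with the largest mean absolute change against WT, and for the other lists 4 genes with the largest called changes were chosen, of which 1 is not reported here. The members and lists were chosen with earlier results of these data known. Alternatives were DESeq2 1.42.0, its size factors in edgeR, library totals alone, no filter, only the groups compared, a replicate block, a log2 fold change of at least 1, offsets for length and GC content or for each chromosome's median, and leaving out each library.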

Additional observations from a re-analysis of the deposited data

How the results depend on the processing

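Leaving out each library in turn gave 1 (without WT replicate 2) to 10 (without Nono KO replicate 3) members called higher in Nono KO against WT. The ranges for the other counts that moved were 10 to 22 higher and 5 to 11 lower in Sox5 KO against WT, with a median log2 fold change of 0.1365 to 0.2231, 1 to 2 lower between Xap5 KO and Nono KO, and 3 to 7 higher between Nono KO and Sox5 KO. Medians ranged from -0.252 (without Nono KO replicate 2) to 0.0208 (without Nono KO replicate 3) in Nono KO against WT and from -0.3474 to -0.0965 (the same 2 libraries) between Nono KO and Sox5 KO. No member's called direction was reversed by leaving out a library. Library totals alone gave 2 members higher and 20 lower with a median of -0.2588 in Nono KO and a median of 0.0854 in Sox5 KO. The length and GC offset gave medians of -0.1968 in Nono KO and -0.1484 between Nono KO and Sox5 KO, 2 members lower in Xap5 KO, a median of 0.1225 in Sox5 KO and a median of 0.4925 between Xap5 KO and Sox5 KO. The chromosome offset gave 8 members lower in Nono KO, a median of 0.1192 in Sox5 KO, and 3 members lower with a median of 0.3073 between Xap5 KO and Sox5 KO. The cause was not tested in any of these. Shares of all genes called with library totals alone or with either offset are not given here, so those member counts are not read against them.

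When a log2 fold change of at least 1 was also required, fewer genes could pass by construction. Members called higher and lower were then 8 and 0 in Xap5 KO, 0 and 1 in Nono KO and 1 and 0 in Sox5 KO against WT, 8 and 0 between Xap5 KO and Nono KO, 5 and 0 between Xap5 KO and Sox5 KO, and 0 and 2 between Nono KO and Sox5 KO. Over all genes the counts were 756 and 614, 867 and 624, 1106 and 1183, 699 and 775, 1054 and 941, and 1283 and 986 in the same order.

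Among members called in either fit, 13 log2 fold changes changed sign, all under an offset. Among those called in neither fit, 179 changed sign over all alternatives, 94 of them when a library was left out. With the chromosome offset, Gins4 was 0.32 in Xap5 KO against WT, Fen1 -0.10 and Rrm2 0.64 in Sox5 KO against WT, Cdt1 0.076, Gins3 0.044 and Gins4 0.32 between Xap5 KO and Sox5 KO, and Pola1 0.14, Lig1 0.12, Rrm1 0.21 and Rrm2 -0.29 between Nono KO and Sox5 KO. With the length and GC offset, Rpa3 was -0.39 in Sox5 KO against WT, and Gins4 0.059 and Rpa1 -0.16 between Xap5 KO and Sox5 KO. Setting aside the minimum fold change, the calls that held in all alternatives were 21 of 29 in Xap5 KO, 7 of 19 in Nono KO and 9 of 26 in Sox5 KO against WT. Between knockouts, 35 of 39 held for Xap5 KO against Nono KO and 21 of 34 for Xap5 KO against Sox5 KO. For Nono KO against Sox5 KO, 15 of 27 held.

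Deviations of libraries with the same replicate number had correlations of -0.023 to 0.046 over genes. Of 11 libraries, 4 correlated best with their own number in every other group that has that number. WT has no replicate 3, so the replicate 3 libraries were compared with the other knockouts only. The count that unrelated numbers would give was not worked out, so this count does not decide whether the numbers mark pairs. The edgeR fit above took no account of the numbers. With the replicate block, the median in Xap5 KO was 0.4778, and members called higher and lower were 30 and 1 in Xap5 KO, 7 and 14 in Nono KO and 21 and 6 in Sox5 KO. It ended the edgeR calls of Cdt1 (adjusted p = 0.0882) and Mcm4 (adjusted p = 0.0577) in Sox5 KO and of Rrm2 (adjusted p = 0.0505) between Nono KO and Sox5 KO, and added 8 others. Shares of all genes called with the block are not given here, so its member counts are not read against them. Over the members, the spread was widest among the 3 Nono KO libraries, with a median coefficient of variation of 18.76%. Over all tested genes it was 8% in Nono KO and 8.32% in Xap5 KO.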
